A study of Mus musculus with 22 samples.

Results

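Fatty acid synthesis and desaturation were followed through 10 genes in FE1 cells, an epithelial line from the lung of the transgenic MutaMouse, after 24 h with the multi-walled carbon nanotube Mitsui7. The genes were Acly, Acss2, Acaca, Fasn, Elovl5, Elovl6, Scd1, Scd2, Fads1 and Fads2, found by matching the RefSeq accession of each probe to these symbols, and they are 10 of 20018 named genes on the array. Together they had 14 probes, 2 for Acly, 2 for Acss2, 3 for Acaca and 1 for each other gene, and a gene was read by its brightest probe. Controls (0 µg/ml) were read on 5 arrays. The low dose of 12.5 µg/ml had 6, the medium dose of 25 µg/ml had 5 and the high dose of 100 µg/ml had 6. Cells of every group, controls included, grew in DMEM/F-12 with 2% fetal bovine serum, antibiotics and epidermal growth factor, and the Mitsui7 was sonicated in culture medium. FE1 is 1 established line, so every array holds the same genetic background. Each array carried Cy5-labelled sample RNA beside the same Cy3-labelled mouse reference RNA from 11 cell lines, and all values below are log2 ratios of sample to reference or differences between such ratios. A ratio does not allow the level of 1 gene to be set against that of another.

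Cells build fatty acids in the cytosol from acetyl-CoA, which ATP citrate lyase (Acly) makes from citrate and acetyl-CoA synthetase (Acss2) makes from acetate. Acetyl-CoA carboxylase (Acaca) turns it into malonyl-CoA, and fatty acid synthase (Fasn) joins these units into palmitate. The elongases Elovl6 and Elovl5 lengthen the chains, the stearoyl-CoA desaturases Scd1 and Scd2 make monounsaturated chains, and the desaturases Fads1 and Fads2 work on polyunsaturated chains. SREBP transcription factors, acting with NF-Y and Sp1, are the textbook activators of these genes, and lung epithelium uses the products for membranes and surfactant lipids.

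The genes that provide acetyl-CoA and 2 further members are shown with their promoters, because they include genes that were lower at every dose (Acss2, Acly) and genes not called at any dose (Fasn, Elovl5). The sequences are the 250 bases before the annotated start, 5′ to 3′ on the strand of the gene, from RefSeq on GRCm38.p6, at chr2:155517793-155518042 (+ strand), chr11:100528001-100528250 (- strand), chr11:120824548-120824797 (- strand) and chr9:77917115-77917364 (+ strand). Capitals mark CCAAT (the NF-Y box), GGGCGG (the Sp1 box) and CACGTG (the E-box), each searched on both strands, so that they also appear as ATTGG and CCGCCC.
Acss2: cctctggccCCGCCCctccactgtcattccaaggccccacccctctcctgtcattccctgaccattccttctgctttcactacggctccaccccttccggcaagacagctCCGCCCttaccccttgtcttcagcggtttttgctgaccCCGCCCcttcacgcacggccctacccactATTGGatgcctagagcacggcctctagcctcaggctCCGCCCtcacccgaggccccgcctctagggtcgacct
Acly: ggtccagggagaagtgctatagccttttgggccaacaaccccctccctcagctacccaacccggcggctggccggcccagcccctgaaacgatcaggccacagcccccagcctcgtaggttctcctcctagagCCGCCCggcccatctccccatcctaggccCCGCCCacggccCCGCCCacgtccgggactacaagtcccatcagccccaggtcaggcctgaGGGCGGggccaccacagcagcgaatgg
Fasn: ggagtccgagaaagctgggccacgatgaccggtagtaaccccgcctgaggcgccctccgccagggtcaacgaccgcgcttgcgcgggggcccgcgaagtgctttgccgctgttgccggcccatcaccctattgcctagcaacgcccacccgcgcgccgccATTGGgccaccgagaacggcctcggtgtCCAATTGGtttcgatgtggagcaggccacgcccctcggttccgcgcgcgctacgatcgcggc
Elovl5: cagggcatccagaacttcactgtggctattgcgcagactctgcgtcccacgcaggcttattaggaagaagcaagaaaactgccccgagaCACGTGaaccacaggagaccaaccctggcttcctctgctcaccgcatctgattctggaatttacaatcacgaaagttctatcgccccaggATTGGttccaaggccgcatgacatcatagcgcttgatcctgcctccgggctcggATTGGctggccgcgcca
Of the 10 genes, 7 had an entry of 300 bases, which runs 50 bases past the start (Acly, Acss2, Acaca, Fasn, Elovl5, Elovl6 and Fads2). CCAAT was found in 4 of the 7 and in 37.4% of all 32851 promoters, and GGGCGG in 3 of the 7 and in 35.7% of all. The Acss2 window held 5 Sp1 boxes, 4 of them in the stretch shown and 1 after the start, while the Acly window held 4 Sp1 boxes and, after the start, 1 CCAAT. In Fasn a CCAAT on 1 strand and its inverse on the other overlap at bases -62 to -55, counted back from the start. CACGTG was found in Elovl5 only among the 7, against 7.15% of all promoters, and the sterol regulatory element in the form TCACNCCAC in 0 of the 7, against 1.24%. Acaca and Elovl6 held none of these motifs. A match describes the letters in this window and is not evidence of a bound factor.

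Nearly every gene had a value on every array: Elovl6 lacked one on the 4 arrays of slide 2, and Acly and Acss2 on low dose replicate 3, where the spots were marked as outliers, and these arrays were left out of the fits of those genes. Each brightest probe was above the negative controls on all 22 arrays and saturated on none. Acss2 was the dim case, with a Cy5 signal of 101 to 561.5 units, well above background on 21 of 22 arrays. The arrays lay on 5 slides, each of slides 1 to 4 holding every group and slide 5 holding 1 low and 1 high dose array. After slide was removed, low dose replicate 1 correlated best over all detected probes with the medium dose (0.46, against -0.33 with its own group), and medium dose replicate 2 with the low dose (0.12, against -0.31). The fit makes deviations within a group sum to 0, so an array's correlation with the rest of its own group is lowered by construction. Before slide was removed, low dose replicate 1 deviated together with the other replicate 1 arrays (correlation 0.57 to 0.819). Medium dose replicate 2 did so with the other replicate 2 arrays (0.6 to 0.649). Whether the labels of these 2 arrays were exchanged could not be settled, which bears on every low and medium dose value, and results were also computed without them. A further 4 arrays correlated best with another group while their own value stayed above 0: low dose replicate 2 with controls (0.15, own 0.02), medium dose replicates 1 and 5 with the high dose (0.24, own 0.10, and 0.36, own 0.23) and high dose replicate 6 with the medium dose (0.53, own 0.36). Of the epithelial markers, Krt18 and Krt7 were well above background on all 22 arrays, Krt8 and Cldn7 on 21, Krt19 on 20 and Cldn4 on 5, while Cdh1 and Epcam were on 0. Of the alveolar type 2 markers, Lamp3 and Abca3 were well above background on all 22 arrays, Sftpc on 14, and Sftpb and Sftpa1 on 0. Of the adipocyte markers, Fabp4 and Pparg were well above background on 20 arrays, Lep on 4, Cidec on 1, and Adipoq and Plin1 on 0. All 6 fibroblast markers (Col1a1, Col1a2, Col3a1, Pdgfra, Pdgfrb and Thy1) were well above background on all 22. Of the macrophage and leukocyte markers, Itgam and Cd3e were so on all 22 arrays, Ptprc on 19, Adgre1 on 11 and Lyz2 on 1. Of the endothelial markers, Kdr was on all 22, Pecam1 on 21, and Cdh5 and Tek on 0. A signal above background thus does not by itself identify a cell type. In RNA from whole cultures, fewer cells of a type and less RNA per cell cannot be told apart.

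Lower expression was the direction of every call among the 10 genes. To be called, a gene needed a limma adjusted p of 0.05 or less, a difference of 1.5-fold or more and detection of its probe on 4 or more arrays in 1 of the groups compared, with group and slide in 1 model and Benjamini-Hochberg adjustment over all probes. At the low dose 3 of 10 were lower (Acly, Acss2, Scd2), against 3.01% of 13642 tested genes called lower and 2.17% called higher. At the medium dose 6 of 10 were lower (these 3 with Scd1, Elovl6 and Fads1), against 4.65% of all tested genes lower and 4.24% higher. The same 6 were lower at the high dose, against 6.4% lower and 5.45% higher. The median change of the 10 was -0.48, -0.72 and -0.79 in order of dose, on the log2 scale, and that of all tested genes was between 0.00 and 0.01 at each dose. The 3 comparisons share their controls, so they are not independent of each other. Without the arrays that stood apart, the counts were 2, 6 and 6, with the Scd2 call at the low dose lost (-1.13, adjusted p = 0.0568).

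**Figure D1:**
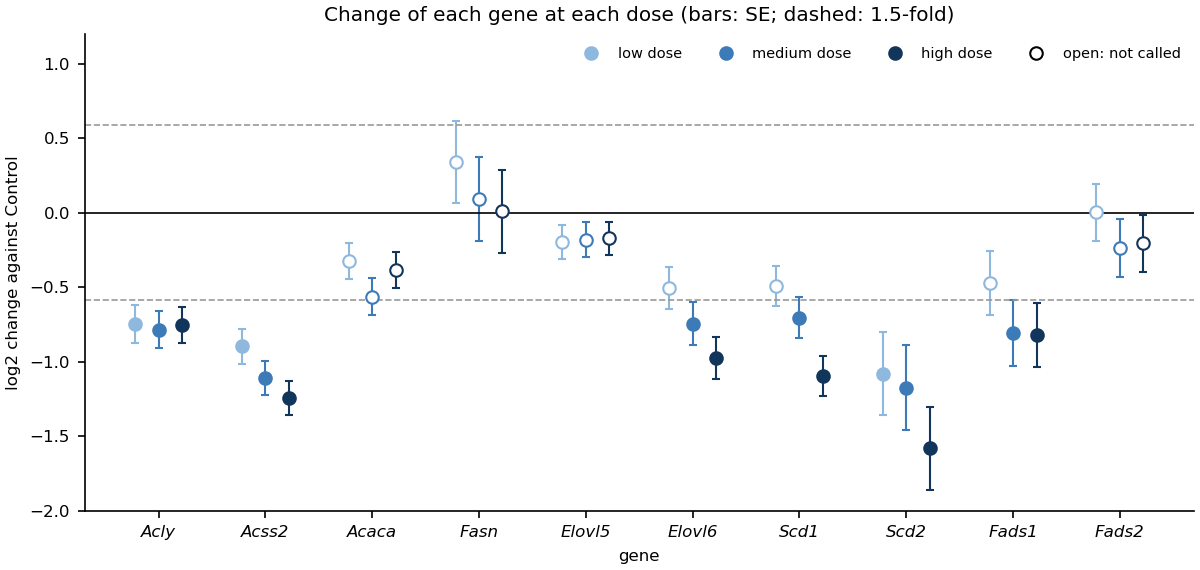
Log2 change of each gene against controls (y axis) at the low, medium and high dose (light to dark), with bars for the SE from limma and dashed lines at 1.5-fold. Filled points were called: Acly, Acss2 and Scd2 at all 3 doses, Scd1, Elovl6 and Fads1 at the medium and high dose, while Acaca, Fasn, Elovl5 and Fads2 have open points only.

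The genes that supply acetyl-CoA were lower at all 3 doses. Acly had log2 ratios of 1.46, 0.99, 1.08, 0.88 and 1.00 in the 5 controls. The 5 low dose arrays with a value gave 0.32, 0.52, 0.04, 0.45 and 0.44, the medium dose arrays 0.18, 0.34, 0.35, 0.33 and 0.31, and the high dose arrays a lowest of 0.13, a median of 0.24 and a highest of 0.82. Every exposed array was thus below every control, and the exposed groups overlapped each other throughout. The differences from controls were -0.75 (SE 0.13, adjusted p = 0.00167), -0.78 (SE 0.12, adjusted p = 0.000426) and -0.75 (SE 0.12, adjusted p = 0.000289), or 1.68-, 1.72- and 1.69-fold lower. The calls of Acly were lost when arrays were centred on the median in place of loess (adjusted p from 0.22 to 0.536) and in the authors' value table (adjusted p from 0.134 to 0.605), with the direction kept. A second, dimmer Acly probe gave -0.18, -0.26 and -0.10 and was not called.

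Acss2 gave -0.94, -1.25, -1.26, -1.24 and -1.07 in controls. Low dose arrays with a value gave -2.15, -1.83, -2.15, -2.33 and -1.73, and medium dose arrays -2.39, -2.34, -2.40, -1.88 and -2.29. At the high dose the lowest was -2.69, the median -2.37 and the highest -2.22. No exposed array reached the level of any control. The changes were -0.90 (SE 0.12, adjusted p = 0.000154), -1.11 (SE 0.11, adjusted p = 5.32e-06) and -1.24 (SE 0.11, adjusted p = 4.81e-07), or 1.86-, 2.15- and 2.37-fold. At the high dose 176 of 14027 tested genes (1.25%) had a lower value. The other Acss2 probe was also below 0, at -0.22, -0.41 (adjusted p = 0.0354, under 1.5-fold) and -0.19, and was not called, so the size of the Acss2 change rests on 1 of its 2 probes.

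**Figure D2:**
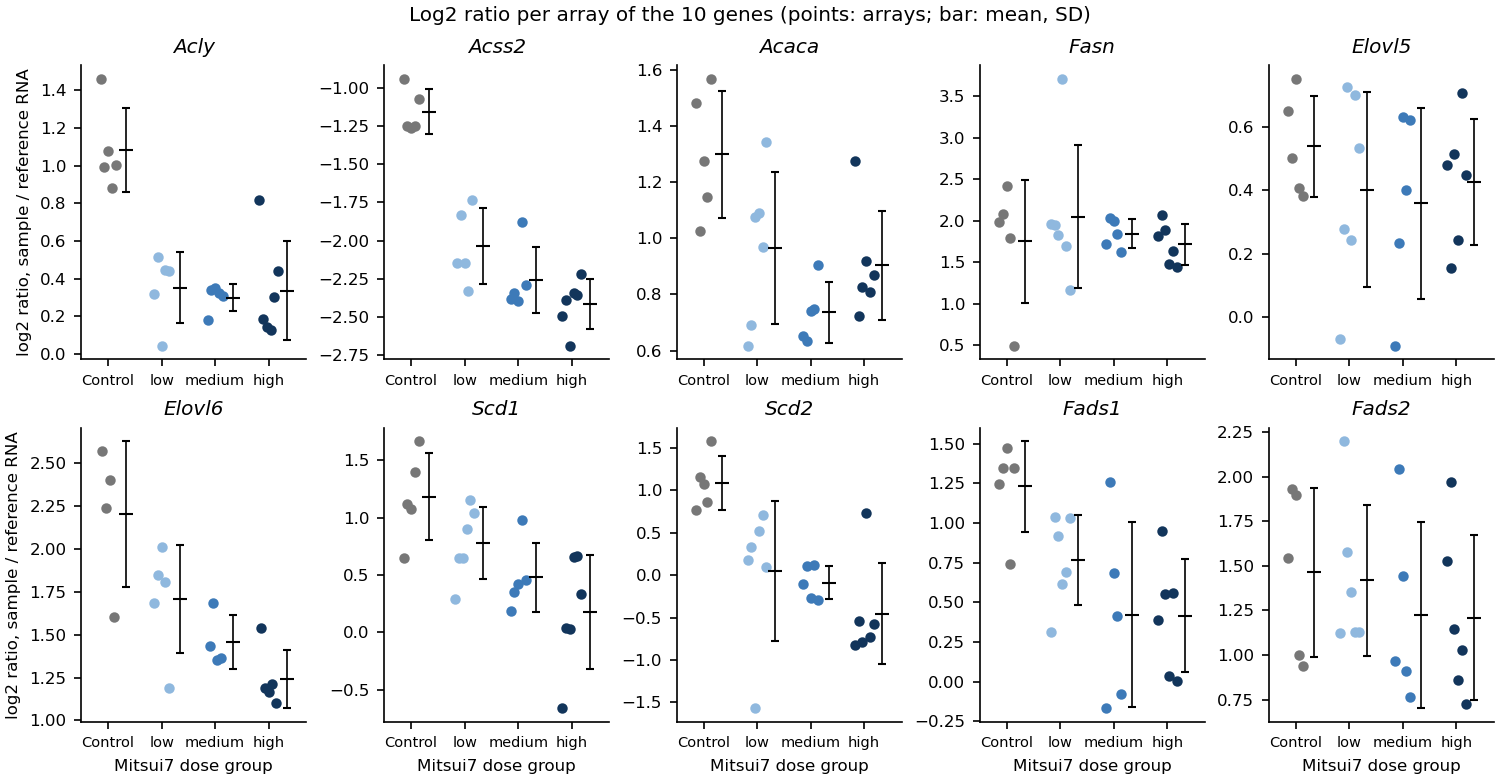
Log2 ratio of sample to reference RNA (y axis, own scale per gene) in each array of the control, low, medium and high dose groups, with the mean and SD beside the points. Acly, Acss2 and Scd2 have no overlap between controls and exposed arrays, whereas the groups overlap throughout in Fasn, Elovl5 and Fads2.

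The carboxylase, which carries out the committed step, and the synthase, which acts after it, were not called at any dose. Acaca gave 1.48, 1.02, 1.28, 1.15 and 1.57 in controls and 0.65, 0.63, 0.74, 0.75 and 0.91 at the medium dose, where every array was below every control. Its medium dose change of -0.56 (SE 0.12) had an adjusted p of 0.00821 and lay just under the fold limit, at 1.48-fold. The low and high dose changes were -0.33 (SE 0.12, adjusted p = 0.192) and -0.39 (SE 0.12, adjusted p = 0.0587). Both other Acaca probes were also below 0 at each dose, with changes from -0.34 to -0.13, and were not called.

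Fasn, whose promoter is shown above, spread widely in controls (SD 0.74, n = 5) and at the low dose (SD 0.86, n = 6) and less at the medium (SD 0.18, n = 5) and high dose (SD 0.25, n = 6). Controls gave 1.99, 2.08, 2.42, 1.79 and 0.49, so 1 control array lay far under the others. Low dose arrays ran from 1.16 to 3.71 with a median of 1.89, medium dose arrays gave 1.73, 2.04, 2.00, 1.84 and 1.62, and high dose arrays ran from 1.44 to 2.07 with a median of 1.72. All groups overlapped. The changes were 0.34 (SE 0.28, adjusted p = 0.67), 0.09 (SE 0.28, adjusted p = 0.943) and 0.01 (SE 0.28, adjusted p = 0.995), and the 95% interval at the high dose ran from -0.57 to 0.59. The low dose estimate of Fasn rested on low dose replicate 4, without which it was -0.04, and its sign at the high dose turned under several settings given in the closing section. At the high dose 50% of tested genes had a lower value than Fasn.

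Of the elongases, Elovl6 was lower at the medium and high dose and Elovl5 was not called. Elovl6, which extends palmitate to stearate, gave 2.57, 2.24, 2.40 and 1.60 in the 4 controls with a value. Low dose arrays gave 1.68, 1.85, 2.01, 1.81 and 1.19, medium dose arrays 1.43, 1.69, 1.35 and 1.36, and high dose arrays 1.54, 1.19, 1.17, 1.21 and 1.10. High dose arrays were all below the controls, while the other doses overlapped them in part. The changes were -0.51 (SE 0.14, adjusted p = 0.0614), -0.75 (SE 0.14, adjusted p = 0.00409) and -0.97 (SE 0.14, adjusted p = 0.000185). Median centring ended both Elovl6 calls (adjusted p = 0.576 at the medium and 0.163 at the high dose), as did the 2-fold threshold. The medium dose call of Elovl6 was also lost in the authors' value table (adjusted p = 0.157), with marked spots kept (-0.59, adjusted p = 0.0543), and without slide 1 or 3 (adjusted p = 0.227 and 0.0537).

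Elovl5 elongates polyunsaturated chains, and among the 7 promoters searched only its own held the E-box. Ratios of Elovl5 ran from 0.38 to 0.75 in controls and from 0.15 to 0.71 at the high dose. Its changes of -0.20, -0.18 and -0.17 (SE 0.11 to 0.12, adjusted p from 0.491 to 0.534) did not pass the test. The 95% interval at the high dose was -0.41 to 0.06. Within an array the log2 ratio of Elovl6 minus that of Elovl5 averaged 1.63 ± 0.30 in controls (SD, n = 4), against 0.78 ± 0.25 for high dose arrays (SD, n = 5), with no overlap (1.22 to 1.92 against 0.50 to 1.05). Low dose arrays (0.65 to 1.75, n = 5) and medium dose arrays (0.72 to 1.53, n = 4) overlapped controls.

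Both stearoyl-CoA desaturases were lower, Scd2 at all 3 doses and Scd1 at the medium and high dose. Scd1 gave 0.65, 1.12, 1.08, 1.40 and 1.67 in controls. At the low dose it ran from 0.29 to 1.16 with a median of 0.77, at the medium dose it was 0.19, 0.35, 0.43, 0.98 and 0.45, and at the high dose it ran from -0.66 to 0.67 with a median of 0.19. These values overlapped between groups, but after slide was removed all 5 medium and 6 high dose arrays were below every control. At the low dose 5 arrays were, and replicate 2 had the same value as control replicate 1 to 4 decimals (0.9807). Changes of Scd1 were -0.49 (SE 0.13, adjusted p = 0.0477, under 1.5-fold), -0.70 (SE 0.14, adjusted p = 0.00278) and -1.09 (SE 0.13, adjusted p = 1.32e-05). The high dose value of Scd1 was called under all 44 alternatives.

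Scd2 showed the lowest change of the 10 genes at each dose, with Acss2 next and close to it at the medium dose (-1.11). At the low dose this order rested on low dose replicate 3, without which Scd2 was -0.77. Acss2 was -0.83 or lower there with any single array left out. Its ratios were 0.77, 1.16, 1.08, 0.86 and 1.58 in controls. At the low dose they ran from -1.57 to 0.71 with a median of 0.26, at the medium dose they were -0.11, 0.11, -0.27, 0.11 and -0.29, and at the high dose they ran from -0.82 to 0.73 with a median of -0.65. All exposed arrays were below every control in these ratios, and all but 1 low dose array (replicate 5) after slide was removed, but low dose replicate 3 and high dose replicate 4 lay far from their groups. The changes were -1.08 (SE 0.28, adjusted p = 0.0336), -1.17 (SE 0.28, adjusted p = 0.016) and -1.58 (SE 0.28, adjusted p = 0.000707), the last being 2.99-fold with a 95% interval of -2.16 to -0.997. Only 0.57% of tested genes had a lower value at the high dose. The low dose call was lost without control replicate 2, 3 or 5 or low dose replicate 3, 4 or 6 (adjusted p from 0.0596 to 0.146, change -0.77 without low dose replicate 3), and the medium dose call without control replicate 3 or 5 or medium dose replicate 4 or 5 (adjusted p from 0.053 to 0.077). In all, the low dose call of Scd2 stood in 29 of 44 alternatives and the medium dose call in 34. Both were lost with median centring, in the authors' value table, without the slide term, in the ordinary linear model and without slide 1 or 4, and the low dose call also without slide 3 and with only the groups compared (adjusted p from 0.052 to 0.241 over these). The high dose call was lost without slide 1 (adjusted p = 0.0509).

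Among the front-end desaturases, Fads1 was called at the medium and high dose and Fads2 at no dose. Fads1, the delta-5 desaturase, gave 1.25, 1.35, 1.48, 0.74 and 1.35 in controls. It ran from 0.31 to 1.04 with a median of 0.80 at the low dose, was -0.17, 1.26, 0.68, 0.41 and -0.08 at the medium dose, and ran from 0.01 to 0.95 with a median of 0.47 at the high dose. Medium dose replicate 2, which stood apart over all probes, was the array within the control range. The changes were -0.47 (SE 0.22, adjusted p = 0.331), -0.81 (SE 0.22, adjusted p = 0.0339) and -0.82 (SE 0.22, adjusted p = 0.0186). The medium dose call of Fads1 was lost without control replicate 1, 2, 3 or 5 or medium dose replicate 1, 3 or 5 (adjusted p from 0.0537 to 0.13), and the high dose call without control replicate 3 or 5 or high dose replicate 6 (adjusted p from 0.0532 to 0.0626). In all, the medium dose call of Fads1 stood in 28 of 44 alternatives and the high dose call in 37. Losses at the medium dose included median centring, the scanner ratio, no slide term, only the groups compared and slide 2, 3 or 4 left out, and those at the high dose slide 3 or 4 left out. The ordinary linear model and the 2-fold threshold ended both calls.

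Fads2, the delta-6 desaturase, ran from 0.94 to 1.93 in controls and from 0.73 to 1.97 at the high dose. Its changes were 0.00, -0.24 and -0.21 (SE 0.19, adjusted p from 0.675 to 0.998), with a 95% interval of -0.61 to 0.19 at the high dose. Within an array Fads1 minus Fads2 averaged -0.23 ± 0.38 in controls (SD, n = 5), against -0.79 ± 0.25 for high dose arrays (SD, n = 6), with some overlap (-0.59 to 0.40 against -1.13 to -0.47). It also overlapped controls at the low (-1.16 to -0.09) and medium dose (-1.13 to -0.49). Whether the 2 genes differ in their change was not tested.

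Exposed and control arrays of the same slide could be set side by side on slides 1 to 4. Acly, Acss2, Acaca, Elovl6, Scd1, Scd2 and Fads1 were below the controls of their slide at each dose on every slide with a value. The high dose difference of Acss2 was between -1.43 and -1.10 over 4 slides, that of Acly between -0.93 and -0.57, and that of Scd1 between -1.34 and -0.75. Scd2 spread more, from -2.15 to -0.13. Fasn went both ways, with 2 of 4 slides below at the low and medium dose and 3 of 4 at the high dose. Averaged over the genes with a value (10 on most arrays, 9 on the 4 arrays of slide 2 and 8 on low dose replicate 3), the deviation from the control mean was -0.21 to 0.18 in control arrays, -0.66 to -0.28 in low dose, -0.85 to -0.45 in medium dose and -0.77 to -0.65 in high dose arrays.

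**Figure D3:**
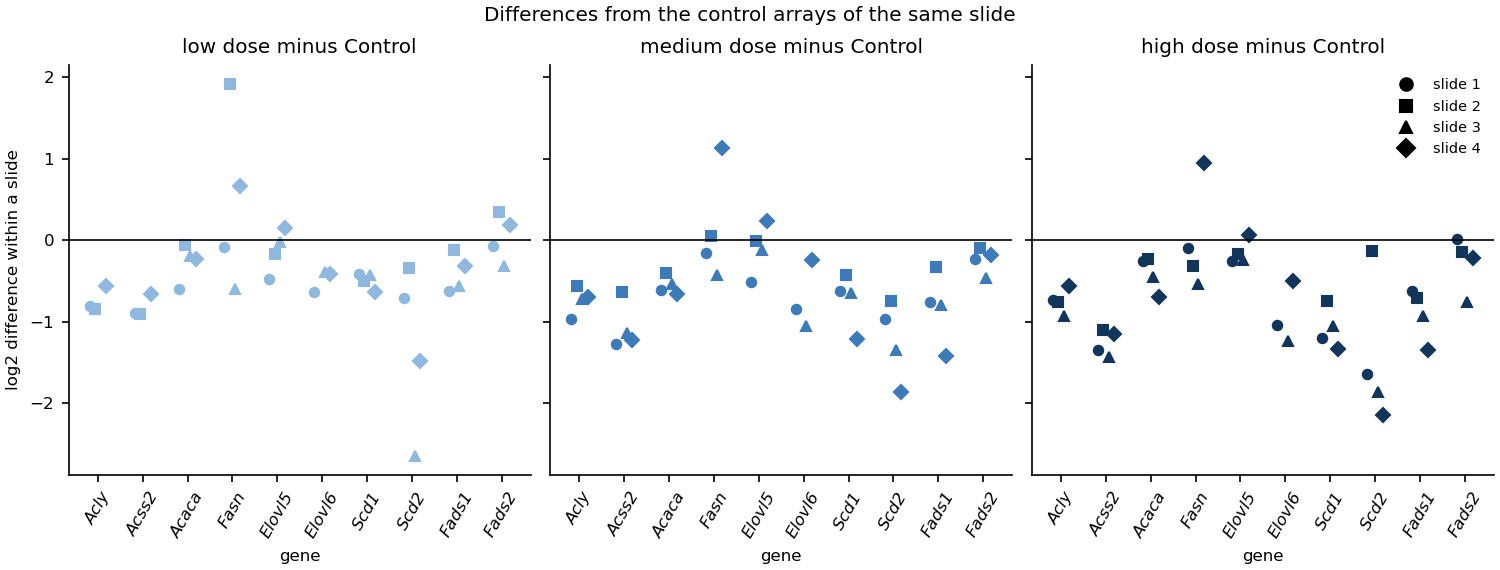
Difference in log2 ratio from the control arrays of the same slide (y axis) for each gene at the low, medium and high dose, 1 symbol per slide. Points of Acly, Acss2, Acaca, Elovl6, Scd1, Scd2 and Fads1 lie below 0 on every slide with a value, while Fasn lies on both sides and reached 1.92 on slide 2 at the low dose.

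Doses were also compared directly, because counts against shared controls do not show that doses differ. Scd1 was the only one of the 10 called between doses: it was 0.60 lower on the log2 scale at the high than at the low dose (change -0.60, SE 0.12, adjusted p = 0.0419), with all 6 high dose arrays below every low dose array after slide was removed. Over all genes 0.435% of 14256 were called in that comparison. Between the medium and low dose 0 of 10 genes were called by limma (0 at an unadjusted p under 0.05, and 0% of all tested genes called), and between the high and medium dose 0 of 10 (1 at an unadjusted p under 0.05, and 0% of all). The ordinary linear model called 0 of 10 in both as well. The Scd1 call between doses was lost in many alternatives, as listed in the closing section.

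Genes around the pathway were read from 7 related lists, each described by its counts, with the shares of all tested genes given above as the background. Cholesterol synthesis and the LDL receptor, the other arm driven by SREBP factors, had 5, 13 and 18 of 22 genes lower in order of dose and 0 higher, with medians of -0.51, -0.74 and -0.94. Its largest high dose changes were Tm7sf2, a sterol reductase, at -1.60 (SE 0.11), Mvd, mevalonate decarboxylase, at -1.54 (SE 0.25), Lss, lanosterol synthase, at -1.31 (SE 0.25), Nsdhl, a sterol demethylation enzyme, at -1.24 (SE 0.16) and Hmgcs1, HMG-CoA synthase, at -1.24 (SE 0.19). Their limma adjusted p-values ran from 1.05e-08 to 0.00123, and all 6 high dose arrays were below every control for each of them after slide was removed. Hmgcs1 stood at 0.10 (adjusted p = 0.905) at the low dose.

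Among genes that provide citrate-derived acetyl-CoA and NADPH, 1, 1 and 2 of 7 tested genes were lower. Idh1, which makes NADPH in the cytosol, was lower at each dose, by -0.95, -1.18 and -1.34 (SE 0.13, limma adjusted p at most 0.000216), with every exposed array below every control after slide was removed. Slc25a1, the citrate carrier of mitochondria, was lower at the high dose, at -0.91 (SE 0.23, adjusted p = 0.0144). The remaining genes of synthesis, elongation and desaturation had 1, 1 and 2 genes lower of 17 or 18 tested and medians between -0.15 and -0.07. Hacd4, a dehydratase of the elongation cycle, was lower at -0.99, -1.28 and -1.87 (SE 0.22, adjusted p = 8.14e-06 at the high dose). Cyb5a, the cytochrome that passes electrons to desaturases, was lower at the high dose, at -0.64 (SE 0.11, adjusted p = 0.000695). The 6 genes of mitochondrial fatty acid synthesis had 0 calls by limma at any dose, with 0 at an unadjusted p under 0.05, and medians of -0.08, 0.12 and 0.09.

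Of 14 tested regulators, 1 was higher at each dose and 1 was lower at the medium and high dose. Trib3, a pseudokinase induced by stress, was higher by 1.56, 1.98 and 2.09 (SE 0.22 to 0.23, limma adjusted p at most 0.000252), with all exposed arrays above every control after slide was removed. Insig1, an SREBP target that retains the SREBP escort protein in the endoplasmic reticulum, was lower at -0.88 and -0.91 (SE 0.16, adjusted p = 0.00156 and 0.000533) at the medium and high dose. Srebf1, which encodes the SREBP form that drives fatty acid synthesis and was singled out after its values were seen, gave -0.25, -0.12 and -0.24 (SE 0.13, adjusted p from 0.352 to 0.779) and was not called.

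Genes that activate fatty acids and build glycerolipids went both ways, with 2, 3 and 4 of 18 tested genes higher and 2, 1 and 3 lower. Dgat2, which makes triacylglycerol, was higher by 1.02, 1.14 and 1.51 (SE 0.15, limma adjusted p = 6.86e-07 at the high dose). Plin2, a coat protein of lipid droplets, was higher by 0.68, 1.01 and 1.42 (SE 0.17 to 0.18, adjusted p = 1.29e-05 at the high dose), and Chka, choline kinase, was higher by 0.98 and 1.09 at the medium and high dose. Lpin1, a phosphatidate phosphatase, was lower at -0.80, -0.91 and -1.18 (SE 0.19, adjusted p = 0.000224 at the high dose), and Acsl3, an acyl-CoA synthetase, at the low (-0.67) and high dose (-0.84). Fatty acid oxidation had 4, 6 and 7 genes lower of 20 or 21 tested and 0 higher, with medians of -0.34, -0.43 and -0.46. Acadm, Acaa2 and Hadh, enzymes of the oxidation spiral in mitochondria, were lower at each dose, with high dose changes of -0.92, -0.90 and -0.84 (SE 0.09 to 0.12). Cpt1a, which admits fatty acids to mitochondria, was lower at the medium and high dose (-0.83 and -0.81, SE 0.11), and Decr1, an auxiliary enzyme, at the high dose (-0.67, SE 0.13).

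**Figure D4:**
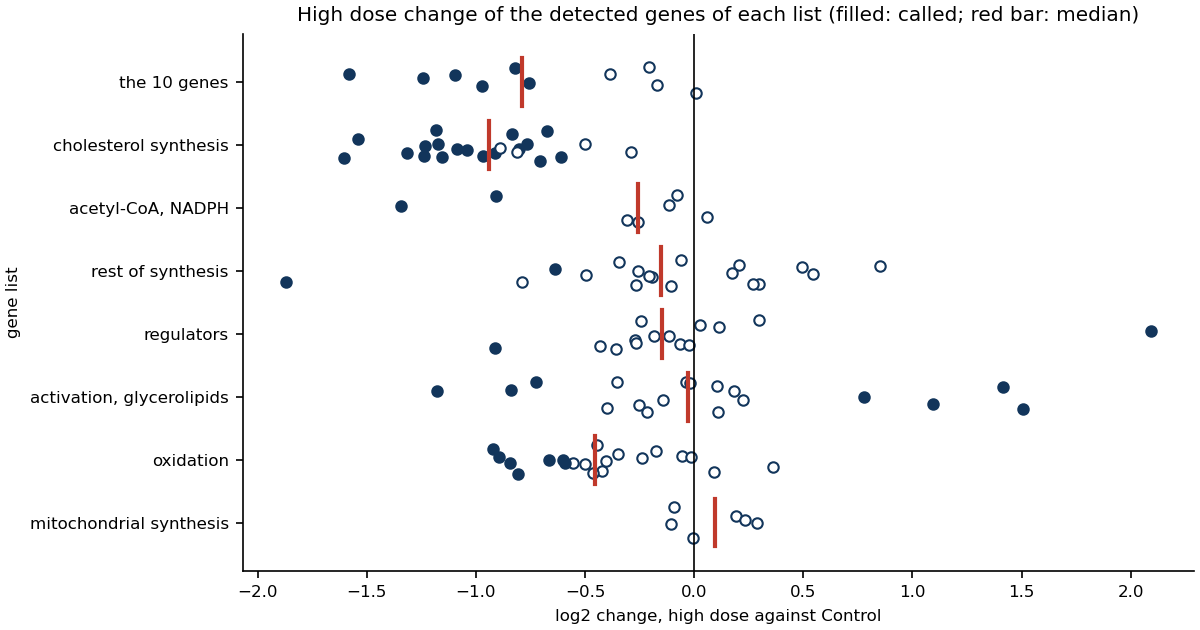
Log2 change at the high dose against controls (x axis) of each detected gene in the 10 genes and 7 related lists (y axis), with filled points for called genes and a red bar at the median of the list. The 10 genes (median -0.79) and cholesterol synthesis (median -0.94) lie mostly below 0. Oxidation (18 of 20 genes, median -0.46) and acetyl-CoA and NADPH supply (6 of 7, median -0.26) do so too, by less. Activation and glycerolipid genes lie on both sides (median -0.03).

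Most fibroblast markers, but not all, were lower beside these genes. Col1a1, Col1a2, Col3a1 and Pdgfra were called lower at all 3 doses and Pdgfrb at the 2 higher doses, making 4, 5 and 5 of 6 markers, with list medians of -0.80, -1.16 and -1.43. Of all tested genes, 3.01%, 4.65% and 6.4% were called lower. Thy1 gave 0.10, -0.16 and -0.02 (limma adjusted p from 0.77 to 0.977) and was not called. The mean log2 ratio of the 6 markers was -0.37 to 0.09 in control arrays, -1.49 to -0.45 at the low, -1.54 to -1.08 at the medium and -1.64 to -1.03 at the high dose. The mean of the 4 epithelial markers above the negative controls on every array overlapped between all groups, at -3.60 to -2.72 in controls and -3.55 to -2.84 at the high dose, but 1 of the 4, Krt7, was called lower at the medium (-0.79, SE 0.12, adjusted p = 0.000258) and high dose (-0.85, SE 0.12, adjusted p = 5e-05). Of the alveolar type 2 markers, Lamp3 was called higher at the medium (0.75, SE 0.18, adjusted p = 0.0134) and high dose (0.90, SE 0.17, adjusted p = 0.00168), and Sftpc and Abca3 were not called. Among adipocyte markers Fabp4 was higher, by 1.06, 1.06 and 1.09 (SE 0.28, limma adjusted p from 0.0148 to 0.0358). Pparg gave -0.09, -0.32 and -0.17 (limma adjusted p from 0.0686 to 0.78) and was not called, while Adipoq and Plin1 were near the negative controls. The part of these shifts in the changes of the 10 genes was not tested.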

How the data were processed

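The members and gene lists were chosen with earlier results of these data known. Sample RNA was labelled with Cy5 and reference RNA with Cy3 on all 22 two-colour Agilent arrays, without dye swap, so the dye bias of a probe cancels only between groups. The deposited scanner files hold the median spot intensity in both channels, extracted by the authors without normalization (Feature Extraction 10.7.3.1 per the file headers). They also hold a deposited log10 ratio, corrected for background and dye by the extraction software, and marks for outliers, saturation and signal well above background. The authors' value table holds deposited log2 ratios whose normalization is not stated. Their column medians ran from 0.00433 to 0.0267, the correlation of a column with the loess ratios of its array was 0.84 to 0.99, and whether the authors centred or rescaled them stays unknown. The scanner ratio and this table were used only as alternatives.

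Control spots were left out, spots marked as outliers were dropped, and log2(Cy5/Cy3) of the signals, with no background subtracted, was loess-normalised array by array. Detection required a Cy5 signal more than 3 trimmed SDs above the 5% trimmed mean of 308 negative controls (23688 to 39139 of 55681 probes per array). The methods of the study name group and slide as terms, which were kept, but their shrinkage test was not installed and limma 3.58.1 in R 4.3.3 (lmFit, eBayes, prior df 5.51) took its place, checked on simulated data. Benjamini-Hochberg adjustment ran over all probes. Slides were told apart by the array identifiers of the files. The methods name 3 separate experiments and the labels 3 exposures per dose on each experiment day, without tying arrays to them, so the arrays of a group may share an experiment and p-values measure only the spread between these samples, which may be partly technical.

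The groups share sample numbers in the labels. Same-numbered arrays deviated together in 31 of 31 pairs (correlation 0.187 to 0.819), and these numbers nearly coincide with slides, with 4 pairs on different slides. With slide removed, 13 of 31 pairs were over 0.1, and the correlations ran from -1 to 0.585. Slides 2 to 4 hold a single array per group and slide 5 a single low and a single high dose array. Removing group and slide therefore pushes arrays of the same slide apart by construction. The lower count thus cannot show whether the pairing goes beyond the slide. The number was used as a block in place of slide as an alternative.

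Symbols came from the accession of a probe through a RefSeq table of GRCm38.p6, which named 47.4% of probes. The array grid is on another build, so no probe coordinates are given. The 10 members are named at each dose; genes of related lists are named when called at any dose, at most the 5 with the largest high dose changes per list. Other alternatives were background correction, scaling, filters, thresholds, the slide term, the model, the probe chosen per gene, and each array, each slide or both arrays that stand apart left out. The number of arrays limits the precision.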

Additional observations from a re-analysis of the deposited data

Results flagged for a closer look

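Of 40 groups of arrays examined over the 10 genes, 7 held 1 array far from the others, by a gap that chance gives in about 1 in 20 groups. Scd2 had an isolated array at the low dose (replicate 3, log2 ratio -1.571, nearest other 0.0971) and another at the high dose (replicate 4, 0.732, nearest other -0.5421). Low dose replicate 4 stood above its group in Fasn (3.709, nearest other 1.958). High dose replicate 1 stood above its group in Acaca (1.276, nearest other 0.9189) and in Elovl6 (1.537, nearest other 1.21). At the medium dose replicate 1 was low in Acly (0.1791, nearest other 0.3076) and replicate 4 high in Acss2 (-1.878, nearest other -2.293). These values carry the slide of each array, and the cause of the gaps was not tested.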

How the results depend on the processing

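Over 44 alternatives, 1203 of 1320 values of the 10 genes kept their direction and side of the threshold, 73 lost a call, 9 gained one and 35, none of them called, changed sign. Against controls, genes called at the low dose numbered 3 in the reported fit and 2 to 3 with single arrays left out, with 1 in the authors' value table and 1 at a 2-fold threshold. At the medium dose they numbered 6, 4 to 7 with single arrays left out, 2 with median centring, 3 in the authors' value table, 3 without the slide term, 2 at a 2-fold threshold and 3 without slide 4. At the high dose they numbered 6, 5 to 6 with single arrays left out, 4 with median centring, 5 in the authors' value table, in the ordinary linear model, with the steadiest probe, and without slide 1, 3 or 4, and 3 at a 2-fold threshold. The Scd1 call between the high and low dose (1, and 0 to 1 with single arrays left out) became 0 with median centring, the scanner ratio, the authors' value table, scaling between arrays, no slide term, slide as a random block, only the groups compared, the ordinary linear model, a 2-fold threshold, and without slide 1, 2, 3, 4 or 5. Single arrays whose loss ended it were control replicates 3 and 4, low dose replicates 2, 3, 5 and 6, medium dose replicate 3 and high dose replicates 1, 3, 4, 5 and 6. The cause of these losses was not tested, except that a stricter threshold and fewer samples lower a count by construction. With a replicate block instead of slide, the counts were 3, 6 and 6 against controls and 1 between the high and low dose. The pairing thus changed no count of the 10 genes, while calls over all genes became 852, 1309 and 1827.

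Signs turned for values near 0. Fads2 at the low dose was -0.11 with median centring, -0.063 with the scanner ratio, -0.062 with scaling between arrays, -0.045 without the slide term, -0.024 with slide as a random block, -0.078 without slide 2 and -0.039 without slide 4. Fasn at the high dose was -0.0014 with median centring, -0.022 with scaling, -0.035 without the slide term, -0.019 with slide as a random block, -0.017 with only the groups compared, -0.017 without slide 5 and -0.21 without slide 4. Fasn was also -0.0076 at the low dose without slide 2 and -0.17 at the medium dose without slide 4, and Elovl5 was 0.038 at the medium dose without slide 1. With single arrays left out, Fasn ran from -0.039 to 0.51, from -0.10 to 0.26 and from -0.18 to 0.20 in order of dose, and Fads2 at the low dose from -0.10 to 0.16. The Acss2 calls were lost with the probe of smallest spread in place of the brightest, as in the report. Over all genes, the calls of 706, 1191 and 1662 fell to 297, 424 and 862 with median centring and to 194, 326 and 502 at 2-fold, and without the fold threshold became 1310, 1974 and 2889. The share of calls that were lower, 58.1%, 52.3% and 54%, was 83.5%, 63% and 69% with median centring. At the low dose, 470 genes were called with only the groups compared. Between the high and low dose the 62 genes called became 3 to 148 over the alternatives, 132 with the replicate block. Signal over background limits Acss2 most: it had the lowest Cy5 signal of the 10 genes, and a signal near background narrows a fold change.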
